A study of Homo sapiens with 42 samples.

Results

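TSPOAP1 and MIR142HG are neighbours on the minus strand of chromosome 17, and the 6 genes described here (MTMR4, HSF5, RNF43, SUPT4H1, MIR142HG and TSPOAP1) follow each other on that strand. They were taken by gene symbol from the 58243 genes counted, as TSPOAP1 with the genes that lie before it, and the locus was chosen by the TSPOAP1 mRNA and nuclear RNA levels in cells treated with JTE-607. The comparisons with JTE-607 are therefore given as a description with no test, and tests are given only for imatinib and KCl. That choice rests on the untreated libraries too, and the tests against untreated cells and of the difference between fractions use them again. Those tests, also of TSPOAP1 with KCl, are thus not independent of the choice. Only the comparisons between times of the same treatment use neither the untreated nor the JTE-607 libraries.

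The counts come from K562, an established line from a chronic myeloid leukaemia in blast crisis that relies on the BCR-ABL1 kinase to grow. Cells were left untreated (CTRL) or received 1 μM imatinib (IM), which blocks that kinase, for 1, 6 or 18 h, 5 μM JTE-607 (JTE), an inhibitor of the 3′ end nuclease CPSF73, for 1, 6 or 18 h, or 110 mM KCl, a hyperosmotic stress, for 1 or 3 h. Poly(A) mRNA of whole cells was sequenced in all 9 groups, and nuclear RNA depleted of ribosomal RNA in 5 of them (CTRL, IM 1h, IM 18h, JTE 1h and KCl 1h), each with 3 biological replicates. Every comparison with CTRL in a fraction shares the same 3 CTRL libraries, and all groups come from 1 cell line.

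MIR142HG is the host transcript of miR-142, a microRNA known for its abundance in blood cells, and it is a non-coding RNA of a single exon. TSPOAP1 encodes a scaffold protein, also called RIM-binding protein 1, that binds the mitochondrial membrane protein TSPO and, in neurons, links RIM proteins to calcium channels. SUPT4H1 encodes the small subunit of DSIF, the factor that pauses and then escorts RNA polymerase II. RNF43 encodes a ubiquitin ligase that removes Frizzled receptors and so restrains Wnt signalling, HSF5 a member of the heat shock factor family known from male germ cells, and MTMR4 a phosphatase of endosomal phosphoinositides. A messenger RNA normally ends where CPSF73 cuts it after a signal such as AATAAA, and the polymerase then terminates further on.

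All positions are on hg38, as in the count tables. In the direction of transcription MTMR4 (ENSG00000108389, chr17:58489529-58517905) comes first, and HSF5 (ENSG00000176160, chr17:58420167-58488384) starts 1144 bases after its end. RNF43 (ENSG00000108375, chr17:58352500-58417595) starts 2571 bases after HSF5, and its end overlaps the start of SUPT4H1 (ENSG00000213246, chr17:58345175-58353093). MIR142HG (ENSG00000265206, chr17:58330884-58332508) starts 12666 bases after SUPT4H1, and TSPOAP1 (ENSG00000005379, chr17:58301228-58328760) starts 2123 bases after the annotated end of MIR142HG. The next gene on that strand, MPO, which encodes the myeloperoxidase of neutrophil granules, starts 20292 bases after TSPOAP1. On the plus strand TSPOAP1-AS1 (chr17:58325450-58415766) runs against TSPOAP1, MIR142HG, SUPT4H1 and RNF43.

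The hairpin and the mature forms of miR-142 are shown because they are what MIR142HG is known for. They are RefSeq sequences on GRCh38.p14, 5′ to 3′, with the mature arms in capitals in the hairpin and the seeds (bases 2 to 8) in capitals in the mature forms. The hairpin lies within the single exon of MIR142HG, at chr17:58331232-58331318 on the minus strand, and its 87 bases make up 5.35% of that exon. The arms carry different seeds.
MIR142 hairpin: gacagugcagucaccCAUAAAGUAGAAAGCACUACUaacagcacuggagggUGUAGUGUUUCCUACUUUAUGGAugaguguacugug
hsa-miR-142-5p: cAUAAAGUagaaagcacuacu
hsa-miR-142-3p: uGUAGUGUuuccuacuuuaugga

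The start and the end of MIR142HG are shown because the gap between its end and TSPOAP1 is the shortest between non-overlapping members after that of MTMR4 and HSF5. The promoter is the RefSeq window of 250 bases before to 50 bases from the RefSeq start (chr17:58332471-58332770, minus strand). That start, at 58332520, lies 12 bases upstream of the one in the count tables. Capitals mark TATAA at position -31 from the RefSeq start, GGGCGG at -98 and -92, and its reverse complement CCGCCC at 34. TATAA on the listed strand is in 14.8% of 35116 promoters of this length, and GGGCGG or CCGCCC in 45.0%. Promoters were listed for 5 of the 6 members, not for TSPOAP1.
MIR142HG promoter: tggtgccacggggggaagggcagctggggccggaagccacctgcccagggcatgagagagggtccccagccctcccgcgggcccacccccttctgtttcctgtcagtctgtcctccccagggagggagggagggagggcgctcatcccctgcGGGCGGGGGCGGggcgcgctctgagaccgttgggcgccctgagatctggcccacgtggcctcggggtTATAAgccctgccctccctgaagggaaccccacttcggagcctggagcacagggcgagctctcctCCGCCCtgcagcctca

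The 3′ end window is read from hg38 and holds 100 bases on each side of the annotated last base of MIR142HG (chr17:58330784-58330983, minus strand). Capitals mark AATAAA, which starts 21 bases before that base at base 79 of the window. AATAAA on the transcribed strand is in 42.5% of the 58206 windows of 200 bases around annotated gene ends, and AATAAA or ATTAAA in 53.5%. The windows of MTMR4, HSF5 and TSPOAP1 hold at least 1 match to these hexamers and those of RNF43 and SUPT4H1 hold none.
MIR142HG 3′ end: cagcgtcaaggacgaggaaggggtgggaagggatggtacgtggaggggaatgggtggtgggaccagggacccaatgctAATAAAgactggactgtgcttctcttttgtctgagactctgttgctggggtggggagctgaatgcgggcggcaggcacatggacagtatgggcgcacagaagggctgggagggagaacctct

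Library totals ran from 16439848 to 22505595 counts in mRNA, except for KCl 1h replicates 2 and 3 with 62953314 and 42474454, and from 16175394 to 25103205 in nuclear RNA. Levels are given as CPM, a gene's count scaled to library size after TMM scaling. The label K562 was checked with 7 erythroid genes, which lay between 47.2 and 5522 CPM over all libraries. In these bulk samples fewer cells that carry a transcript and less of it per cell cannot be told apart. Calls needed an adjusted p (Benjamini-Hochberg) under 0.05 in edgeR's quasi-likelihood test together with a log2 fold change over 0.6 or under -0.6.

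The 6 genes had very different levels in untreated cells. Per kilobase of exon, the order in CTRL mRNA was SUPT4H1 with 22.2 ± 1.88 CPM per kb (SD, n = 3), MTMR4 with 13.0 ± 0.824, MIR142HG with 5.81 ± 2.24, RNF43 with 0.719 ± 0.1002, TSPOAP1 with 0.193 ± 0.0510 and HSF5 with 0 in each library. No neighbours in that order overlapped between libraries. In CTRL nuclear RNA, MIR142HG came first with 36.6 ± 5.38 CPM per kb, ahead of SUPT4H1 with 24.2 ± 1.09, MTMR4 with 18.8 ± 0.553, RNF43 with 1.16 ± 0.174, TSPOAP1 with 0.757 ± 0.322 and HSF5 with 0.0077 ± 0.0067. Here RNF43 and TSPOAP1 overlapped and the other neighbours did not. The microRNA host thus headed the nuclear order and followed SUPT4H1 and MTMR4 in the mRNA order, each order being within its own scaling. Levels were divided by all exonic bases, though pairs over exons of several genes were not counted. Bases shared with other genes make up 27.8% of SUPT4H1, 20.3% of RNF43, 5.35% of MIR142HG and 2.22% of TSPOAP1. The level of SUPT4H1 may be lowered most, so that the nuclear order of MIR142HG and SUPT4H1 is not firm.

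KCl moved TSPOAP1 and MIR142HG in opposite directions, in both fractions. TSPOAP1 rose and MIR142HG fell after 1 h in nuclear RNA and after 1 and 3 h in mRNA, while SUPT4H1, RNF43 and MTMR4, which lie before them, were not called in any of these 3 comparisons. HSF5 was called in nuclear RNA from low counts.

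In nuclear RNA, TSPOAP1 had 6.03, 6.97 and 12.8 CPM in CTRL replicates 1 to 3 and 40.8, 49.6 and 73.1 CPM after 1 h of KCl. Every KCl library was above every CTRL library. The log2 fold change was 2.67 (SE 0.30, edgeR adjusted p 1.12e-05), from a mean of 8.59 ± 3.65 to 54.5 ± 16.7 CPM (SD, n = 3). MIR142HG had 53.0, 55.9 and 69.4 CPM in CTRL and 11.3, 15.9 and 17.8 CPM after KCl. All KCl libraries lay below all CTRL libraries, and the log2 fold change was -1.98 (SE 0.15, edgeR adjusted p 5.79e-09). In this comparison 3 of the 6 members were called, against 23.8% of the 21929 genes tested. HSF5 was among them, but its call was fixed by the filter on low counts, as described below. Only the calls of TSPOAP1 and MIR142HG can be read against that share.

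In mRNA, TSPOAP1 had 2.54, 1.52 and 2.51 CPM in CTRL, 5.18, 8.09 and 11.2 CPM after 1 h of KCl and 5.29, 10.3 and 4.85 CPM after 3 h. No KCl library reached down to CTRL at either time. The log2 fold change was 1.92 at 1 h (SE 0.30, edgeR adjusted p 1.65e-04) and 1.65 at 3 h (SE 0.31, edgeR adjusted p 4.29e-04). MIR142HG had 12.3, 5.34 and 10.7 CPM in CTRL, 1.14, 2.09 and 1.40 CPM after 1 h and 0.685, 3.21 and 1.24 CPM after 3 h. Every KCl library was again below CTRL. Its log2 fold change was -2.56 at 1 h (SE 0.46, edgeR adjusted p 8.84e-04) and -2.45 at 3 h (SE 0.48, edgeR adjusted p 7.51e-04). At each time 2 of the 5 members tested were called, against 5.45% of the 18095 genes tested at 1 h and 11.9% at 3 h.

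The low counts behind these mRNA values limit their precision, since MIR142HG rested on 22, 125 and 60 counts at 1 h and on 14, 68 and 25 at 3 h, and TSPOAP1 on 46, 29 and 45 counts in CTRL. Over the 11 alternative fits of each comparison, which include leaving out each of its 6 libraries, the log2 fold change of TSPOAP1 lay between 1.64 and 2.13 at 1 h and between 1.21 and 1.84 at 3 h, with edgeR or DESeq2 adjusted p at most 0.0171 and 0.0178. That of MIR142HG lay between -2.87 and -2.32 at 1 h and between -3.29 and -2.08 at 3 h, with adjusted p at most 0.00985 and 0.0158, and the value of -3.29 was the one without KCl 3h replicate 2.

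**Figure D1:**
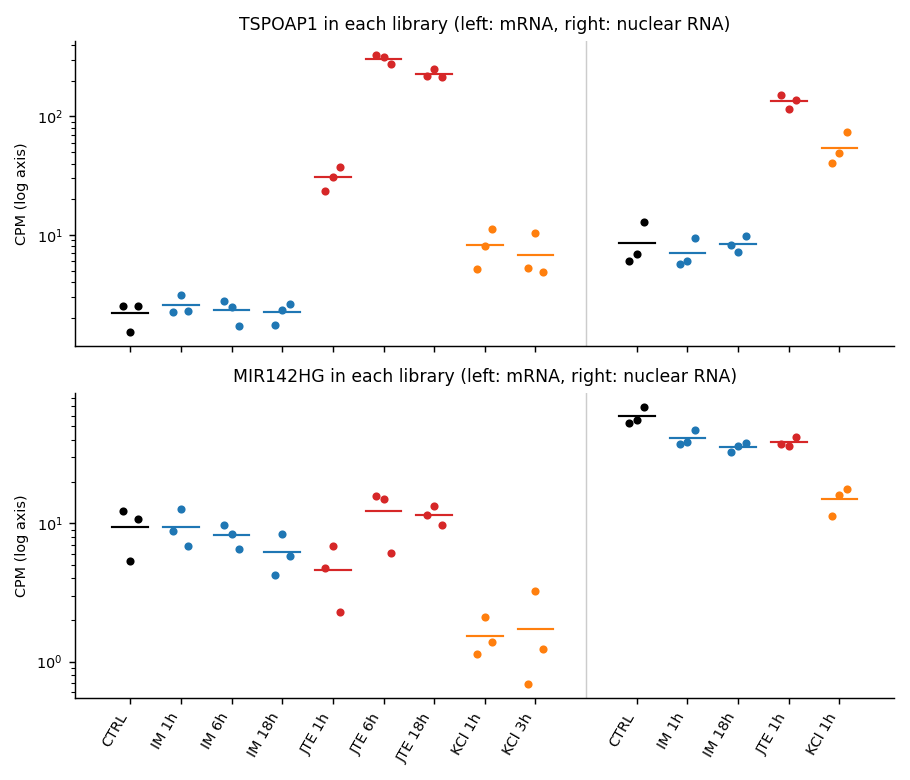
CPM on a log axis of TSPOAP1 (top) and MIR142HG (bottom) in each library by group, mRNA on the left and nuclear RNA on the right of the grey line. Points are libraries and bars are group means (n = 3), with CTRL in black, IM in blue, JTE in red and KCl in orange. In nuclear RNA the KCl 1h libraries of TSPOAP1 lie between 40.8 and 73.1 CPM, above CTRL, and those of MIR142HG between 11.3 and 17.8 CPM, below CTRL.

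Neither gene was called between 3 h and 1 h of KCl in mRNA. The log2 fold change of 3 h against 1 h was -0.28 for TSPOAP1 (approximate 95% interval -0.78 to 0.23, edgeR adjusted p 0.736) and 0.11 for MIR142HG (-0.86 to 1.08, edgeR adjusted p 0.964). RNF43 had the largest value of the 5 members tested, -0.56 (edgeR adjusted p 0.142), with 5.85, 5.98 and 5.63 CPM at 1 h and 4.41, 4.39 and 3.07 CPM at 3 h, which did not overlap. None of the 5 was called, against 3.29% of all genes tested.

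The size of the KCl response at 1 h was compared between the fractions with an interaction term. The nuclear response minus the mRNA response was 0.64 on the log2 scale for TSPOAP1 (approximate 95% interval -0.30 to 1.58, edgeR adjusted p 0.784) and 0.45 for MIR142HG (-0.29 to 1.199, edgeR adjusted p 0.821). None of the 6 members was called, against 0.668% of the 21095 genes tested. A difference between the fractions of up to the ends of these intervals is not excluded.

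The ratio of TSPOAP1 to MIR142HG within a library does not depend on the scaling between libraries. Per kilobase, TSPOAP1 was at 0.0163, 0.0178 and 0.0264 of MIR142HG in the nuclear CTRL libraries and at 0.517, 0.447 and 0.588 after KCl. In mRNA the ratio was 0.0295, 0.0407 and 0.0335 in CTRL, 0.651, 0.553 and 1.15 after 1 h of KCl and 1.10, 0.461 and 0.561 after 3 h. The CTRL and KCl libraries did not overlap in either fraction.

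**Figure D2:**
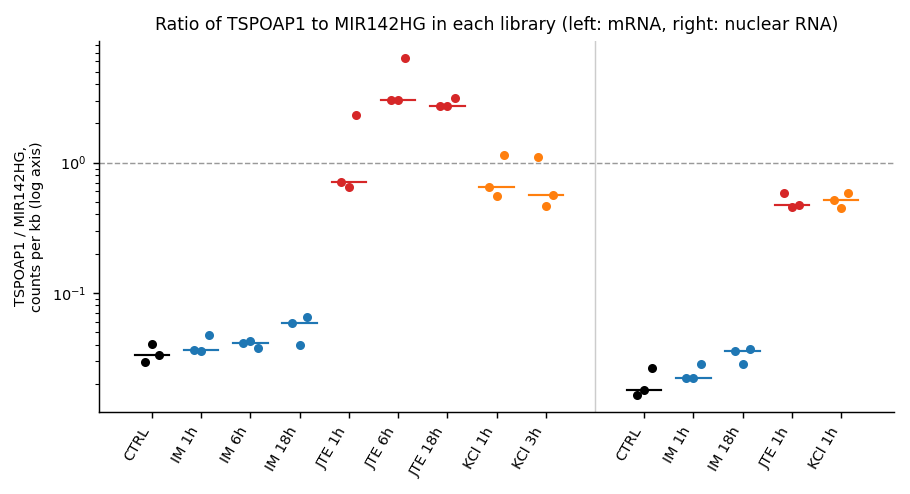
Ratio of TSPOAP1 to MIR142HG counts per kilobase of exon on a log axis, in each library by group, mRNA on the left and nuclear RNA on the right of the grey line. Points are libraries, bars are group medians (n = 3) and the dashed line marks equal levels, with CTRL in black, IM in blue, JTE in red and KCl in orange. The highest CTRL ratio is 0.0407 in mRNA and 0.0264 in nuclear RNA, and the lowest KCl ratio is 0.461 and 0.447.

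HSF5 had few counts outside KCl. Of its 5 introns, 2 exceed the longest gap of 10000 bases that the alignment allowed. Its nuclear counts were 0, 1 and 1 in CTRL and 16, 26 and 45 after 1 h of KCl. The ratio of the summed counts per effective depth was 46.1, with an exact 95% counting interval from 12.4 to 387, which covers counting error only. HSF5 passed the filter on low counts in nuclear RNA only through the KCl libraries, so that it had to differ, and its call adds nothing to the counts of members above. In mRNA it failed the filter, with 0 counts in each CTRL library and 6, 9 and 6 after 3 h of KCl, which is at least 6.25-fold higher than a floor of 3 counts over the CTRL group. It had 0, 4 and 4 counts after 1 h, the latter both from the deep libraries.

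Of the genes before MIR142HG, SUPT4H1, RNF43 and MTMR4 showed no call with KCl. In nuclear RNA the log2 fold change at 1 h was -0.05 for SUPT4H1 (SE 0.10), -0.06 for RNF43 (SE 0.17) and -0.01 for MTMR4 (SE 0.10). In mRNA the values lay between -0.01 and 0.11 at 1 h and between -0.45 and 0.02 at 3 h. The lowest of them was RNF43 at 3 h, whose libraries were all below CTRL (edgeR adjusted p 0.168).

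**Figure D3:**
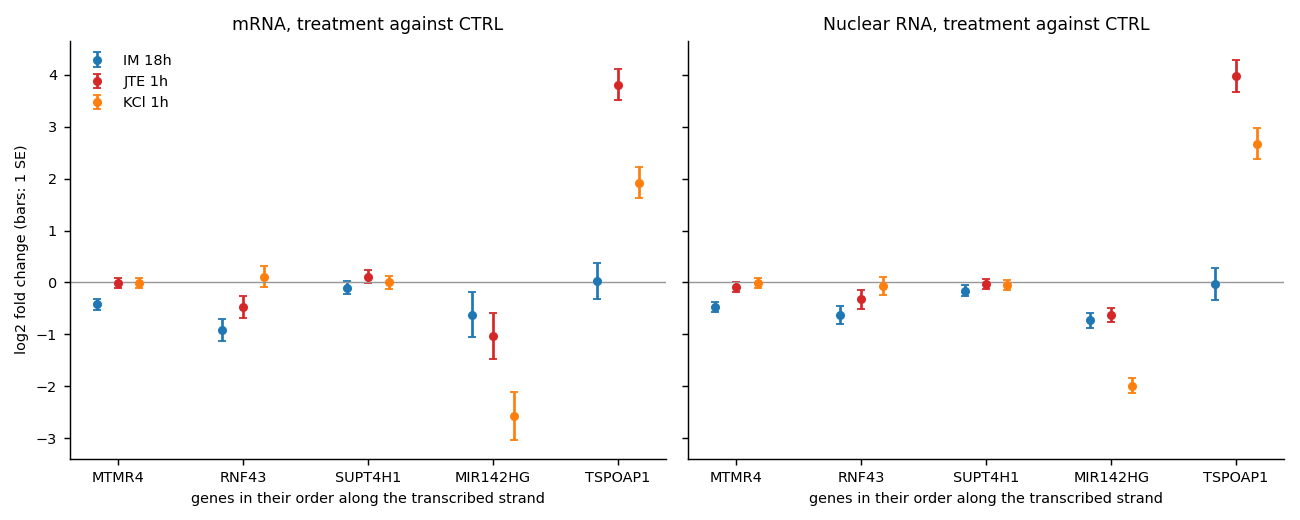
Log2 fold change against CTRL of 5 members in their order along the transcribed strand, in mRNA (left) and nuclear RNA (right), after IM for 18 h (blue), JTE for 1 h (red) and KCl for 1 h (orange). Bars are 1 SE of the edgeR fit and the horizontal axis is gene order, not distance; HSF5 is left out for its low counts. TSPOAP1 is at 2.67 and MIR142HG at -1.98 with KCl in nuclear RNA, while SUPT4H1 stays between -0.16 and 0.11 in all 6 comparisons.

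Imatinib gave another pattern. TSPOAP1 was not called at any time in either fraction, whereas after 18 h RNF43 fell in both fractions and MIR142HG fell in nuclear RNA. MTMR4 was lower at 18 h in both fractions at an adjusted p under the threshold, by less than the fold that a call required.

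TSPOAP1 in mRNA had 2.25, 3.14 and 2.30 CPM after 1 h of imatinib, 2.76, 2.48 and 1.71 CPM after 6 h and 1.74, 2.32 and 2.64 CPM after 18 h, which overlapped the CTRL range of 1.52 to 2.54 CPM at each time. Its log2 fold changes were 0.23, 0.10 and 0.03, with an approximate 95% interval at 18 h from -0.64 to 0.71. In nuclear RNA it had 5.71, 6.00 and 9.37 CPM at 1 h and 8.17, 7.12 and 9.89 CPM at 18 h. These overlapped CTRL, with log2 fold changes of -0.28 and -0.03. The approximate 95% intervals ran from -0.42 to 0.89 at 1 h and from -0.56 to 0.76 at 6 h in mRNA. In nuclear RNA they ran from -0.89 to 0.32 at 1 h and from -0.63 to 0.56 at 18 h. Changes in TSPOAP1 with imatinib within these intervals are not excluded.

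MIR142HG had 37.2, 38.7 and 47.2 CPM in nuclear RNA after 1 h of imatinib and 32.9, 36.2 and 38.3 CPM after 18 h, and all 6 libraries lay below the lowest CTRL library at 53.0 CPM. At 18 h the log2 fold change was -0.73 (SE 0.14, edgeR adjusted p 3.09e-04) and the gene was called. Without nuclear CTRL replicate 3 the value was -0.55 (edgeR adjusted p 0.00672), short of the fold for a call. At 1 h it was -0.53 (SE 0.14, edgeR adjusted p 0.581) and not called. With the replicate number as a block, since same-numbered nuclear libraries deviated together, the value at 1 h was the same to 2 decimals with an edgeR adjusted p of 2.55e-04, still short of the fold for a call. In mRNA MIR142HG had 4.24, 8.42 and 5.78 CPM at 18 h and overlapped CTRL (log2 fold change -0.62, SE 0.43, edgeR adjusted p 0.26).

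RNF43 in mRNA had 6.23, 4.77 and 5.18 CPM in CTRL and 2.33, 3.11 and 3.14 CPM after 18 h of imatinib. The groups did not overlap, and the log2 fold change was -0.91 (SE 0.21, edgeR adjusted p 0.00134). In nuclear RNA it had 7.28, 8.97 and 9.85 CPM in CTRL and 4.04, 6.12 and 6.90 CPM at 18 h, with no overlap and a log2 fold change of -0.62 (SE 0.18, edgeR adjusted p 0.0075). That nuclear call was lost without nuclear CTRL replicate 2 (-0.54), CTRL replicate 3 (-0.48) or IM 18h replicate 1 (-0.42), while the mRNA call held without any 1 library. RNF43 shares 20.3% of its exonic bases with TSPOAP1-AS1 and SUPT4H1, where read pairs could not be assigned, and 2 of its introns exceed the longest gap of 10000 bases that the alignment allowed.

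MTMR4 had 102, 90.4 and 99.1 CPM in CTRL mRNA and 72.2, 71.1 and 74.8 CPM after 18 h of imatinib, without overlap. Its log2 fold change was -0.42 in mRNA (SE 0.10, edgeR adjusted p 0.00226) and -0.48 in nuclear RNA (SE 0.10, edgeR adjusted p 3.65e-04). SUPT4H1 was at -0.10 in mRNA and -0.16 in nuclear RNA at 18 h, and its nuclear libraries overlapped CTRL. In all, 1 of 5 members was called in mRNA against 30.5% of all genes tested, and 2 of 6 in nuclear RNA against 32.6%, so that neither share stood above the background. At 1 h none was called in mRNA or nuclear RNA, where 0.0166% and 0.0456% of all genes were, and none at 6 h, against 9.94%.

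**Figure D4:**
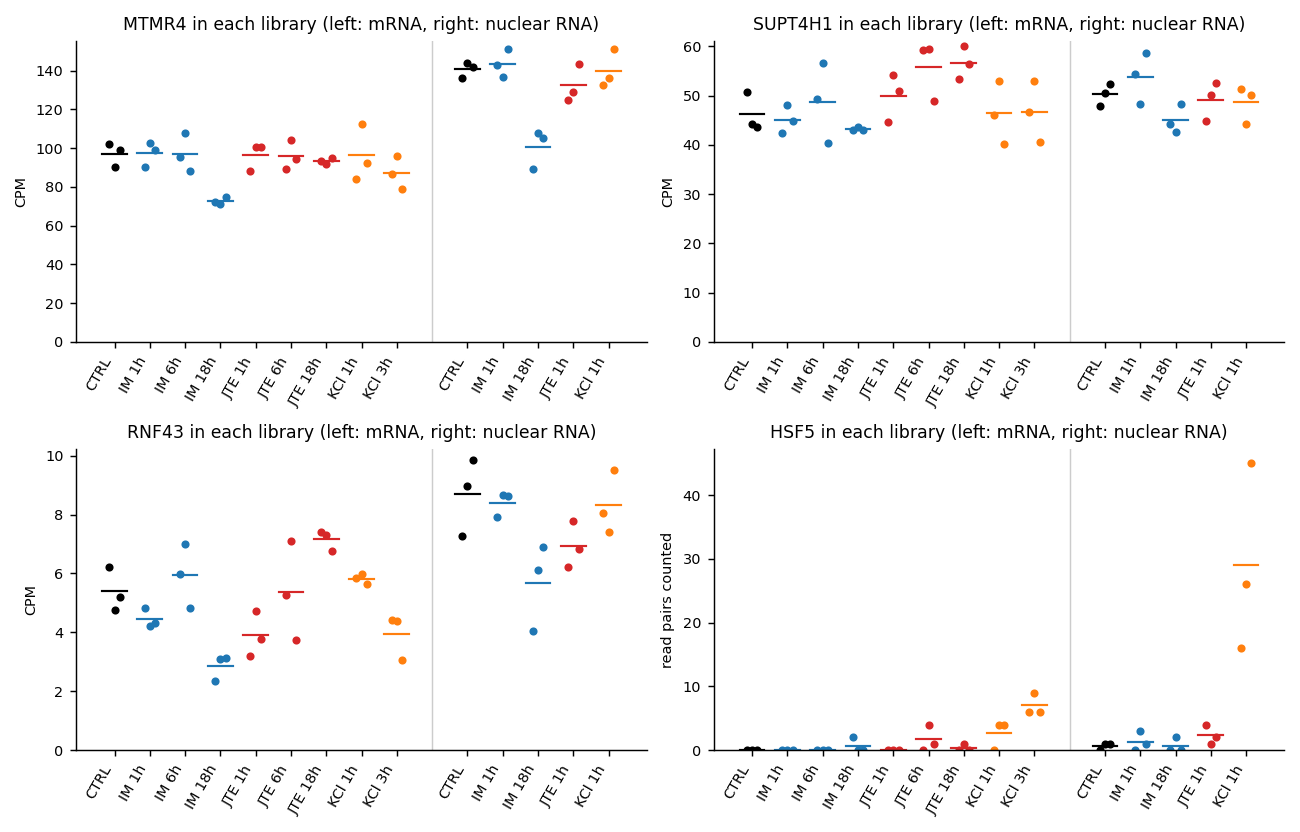
Values in each library by group for MTMR4, SUPT4H1 and RNF43 in CPM and for HSF5 in read pairs counted, all on linear axes, mRNA on the left and nuclear RNA on the right of the grey line. Points are libraries and bars are group means (n = 3), with CTRL in black, IM in blue, JTE in red and KCl in orange. MTMR4 lies between 71.1 and 74.8 CPM in the IM 18h mRNA libraries, below CTRL, and HSF5 reaches 16 to 45 read pairs with KCl in nuclear RNA.

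Within the imatinib course, 18 h against 1 h, RNF43 was called in mRNA (log2 fold change -0.64, SE 0.21, edgeR adjusted p 0.0194) as 1 of 5 members, against 29.3% of all genes. That call was lost without IM 18h replicate 1 (-0.51) or IM 1h replicate 1 (-0.60). In nuclear RNA it was at -0.58 (edgeR adjusted p 0.0133), short of the fold for a call, and none of the 6 members was called, against 31.3% of all genes. MTMR4 was at -0.42 in mRNA and -0.51 in nuclear RNA, with adjusted p of 0.00225 and 2.1e-04 in edgeR. None of the 5 members tested by interaction was called for a difference between the fractions in the response to 18 h of imatinib, where 0.0901% of 19967 genes were. The nuclear minus mRNA value was 0.34 for RNF43 (approximate 95% interval -0.24 to 0.93) and -0.06 for MIR142HG (-0.77 to 0.65).

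JTE is described without a test. TSPOAP1 mRNA had 23.5, 31.1 and 37.3 CPM after 1 h of JTE, 332, 314 and 275 CPM after 6 h, and 219, 250 and 214 CPM after 18 h, where CTRL had at most 2.54 CPM. The log2 fold changes were 3.81 (SE 0.30), 7.13 (SE 0.32) and 6.70 (SE 0.32). The locus was chosen by the JTE levels of TSPOAP1, so that a high rank, also in nuclear RNA, follows from that choice. By size of the rise, TSPOAP1 ranked 27, 17 and 1 among the 18095 genes tested, of which 0.851%, 13.2% and 5.39% were called at the 3 times. In nuclear RNA it had 152, 116 and 138 CPM after 1 h, with a log2 fold change of 3.98 (SE 0.31) and rank 150 of 21929, of which 8.52% were called. The level at 6 h exceeded that at 1 h in every library, and the level at 18 h lay below it in every library.

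Its neighbour MIR142HG lay closer to CTRL. After JTE it had 4.72, 6.84 and 2.30 CPM in mRNA at 1 h (log2 fold change -1.03, SE 0.44), 15.6, 14.97 and 6.13 CPM at 6 h (0.37, SE 0.42) and 11.5, 13.2 and 9.73 CPM at 18 h (0.28, SE 0.42), and each of these groups overlapped CTRL. In nuclear RNA it had 37.1, 36.2 and 42.0 CPM at 1 h, all below CTRL (log2 fold change -0.63, SE 0.14). The ratio per kilobase of TSPOAP1 to MIR142HG was therefore 0.714, 0.651 and 2.33 at 1 h, 3.04, 3.00 and 6.41 at 6 h and 2.73, 2.71 and 3.15 at 18 h in mRNA, and 0.584, 0.460 and 0.470 in nuclear RNA at 1 h. The nuclear ratio after 1 h of JTE thus overlapped that after 1 h of KCl, from a TSPOAP1 level of 135 ± 17.7 CPM with JTE and 54.5 ± 16.7 CPM with KCl, and an MIR142HG level of 38.5 ± 3.10 and 14.99 ± 3.34 CPM (SD, n = 3).

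The other members lay near CTRL with JTE. The log2 fold change of SUPT4H1 was 0.11, 0.27 and 0.30 in mRNA at 1, 6 and 18 h and -0.03 in nuclear RNA, and that of MTMR4 -0.01, -0.02, -0.06 and -0.09. The 18 h mRNA libraries of SUPT4H1, at 53.5, 60.2 and 56.5 CPM, all lay above the highest CTRL library at 50.7 CPM. RNF43 was at -0.47, -0.01, 0.41 and -0.33, with its 1 h mRNA libraries all below CTRL and its 18 h mRNA libraries, at 7.40, 7.32 and 6.75 CPM, all above CTRL. HSF5 had at most 4 counts in any JTE library.

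Beyond TSPOAP1, MPO had higher counts with KCl in nuclear RNA and, after 3 h, in mRNA. It had 3, 0 and 1 counts in nuclear CTRL and 36, 29 and 90 after 1 h of KCl, a ratio of 41.1 with an exact 95% counting interval from 15.7 to 153 for counting error only. Like HSF5 it passed the filter in nuclear RNA only through the KCl libraries, so that it had to differ. In mRNA it failed the filter, with 0, 0 and 3 counts in CTRL, 1, 2 and 5 after 1 h of KCl and 13, 12 and 4 after 3 h. The ratio at 3 h was 8.63, with an exact 95% counting interval from 2.68 to 44.3. It had at most 2 counts in each nuclear JTE library. TSPOAP1-AS1, which shares 2.22% of the exonic bases of TSPOAP1, was at 6.70, 6.92 and 11.9 CPM in nuclear CTRL and 5.49, 8.14 and 9.56 CPM after KCl (log2 fold change -0.13, SE 0.21, edgeR adjusted p 0.735). With JTE it had 20.9, 21.3 and 19.6 CPM in nuclear RNA, a log2 fold change of 1.28 (SE 0.21), and in mRNA 0.38, 2.88 and 2.03 at 1, 6 and 18 h. Since counting took no account of strand, read pairs of TSPOAP1-AS1 and of transcripts on the other strand cannot be told apart over its exons. The row of MIR142 itself held 0 counts in all 42 libraries, and its bases all lie in the exon of MIR142HG, where pairs over both genes were not counted.

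Within 200000 bases of the members lay 24 further genes, of which the filter left 8 in mRNA and 10 in nuclear RNA. With KCl none of the 8 was called in mRNA at 1 or 3 h, and 5 were called higher and 2 lower in nuclear RNA (7 of 10 against 23.8% of all genes tested), one of the former being MPO, which the filter had fixed, with a median log2 fold change of 0.28 beside 0.02 over all genes tested. With 18 h of imatinib 1 of 8 was called in mRNA, lower, against 30.5% of all genes, and 5 of 10 in nuclear RNA, 1 higher and 4 lower, against 32.6%. With JTE their median was 0.21, 1.32 and 0.35 in mRNA at 1, 6 and 18 h and -0.06 in nuclear RNA, beside 0.01, 0.03, -0.01 and -0.01 over all genes.

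A list of 18 genes that work with the members or belong to their families had 15 tested genes in each fraction. SUPT5H, the partner of SUPT4H1 in DSIF, was not called in any comparison tested and had 144 ± 12.1 CPM in CTRL mRNA and 145 ± 7.65 CPM after 18 h of imatinib (SD, n = 3). ZNRF3, the relative of RNF43 with the same role at Frizzled receptors, also fell after 18 h of imatinib, from 13.2 ± 3.16 to 5.86 ± 1.60 CPM in mRNA (-1.17 on the log2 scale, SE 0.29, with an edgeR adjusted p of 0.0021) and by 1.21 on the log2 scale in nuclear RNA (SE 0.18, edgeR adjusted p 1.77e-05), and it was already lower at 6 h in mRNA (-1.13, edgeR adjusted p 0.00858). MTMR3, a relative of MTMR4, rose at 18 h (by 0.81 on the log2 scale in mRNA, edgeR adjusted p 0.00375, and by 0.97 in nuclear RNA, edgeR adjusted p 1.42e-04). TSPO, which TSPOAP1 binds, was not called in any comparison tested and lay between -0.19 and 0.25 with KCl.

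Of the 15 genes, 3 were called higher and 1 lower after 18 h of imatinib in mRNA, against 30.5% of all genes called, and 4 higher and 1 lower in nuclear RNA, against 32.6%, so that these shares were near the background. Those called higher in both fractions were MTMR3, LGR4 (1.94 in mRNA and 1.90 in nuclear RNA on the log2 scale, edgeR adjusted p 8.65e-08 and 6.34e-10) and RIMBP3, a relative of TSPOAP1 (2.24 and 1.40, edgeR adjusted p 0.00209 and 0.00226), and HSF4 was the other in nuclear RNA. LGR4, RIMBP3 and HSF4 are named after their values were seen. The values of RIMBP3 rest on low counts, at most 18 in any mRNA library outside KCl and 41 in nuclear RNA. Whether RIMBP3 passed the filter only through the imatinib libraries was not checked. With KCl 1 was called higher in each of the 3 comparisons with CTRL, the LGR4 relative LGR5, named likewise. LGR5 passed the filter in both fractions only through the KCl libraries, with at most 1 count outside KCl in mRNA and 4 in nuclear RNA, so that its calls were fixed by the filter. The median log2 fold change of the list lay between -0.06 and 0.05 in these 5 comparisons, beside 0.00 to 0.04 over all genes tested.

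Over the 27 mRNA libraries, the genes whose levels ran most like TSPOAP1 among 15608 genes were MCMDC2, ADM5 and LINC01963, with Pearson's r of 0.963, 0.928 and 0.922 on log2(CPM + 0.5). Those most like MIR142HG were KRTCAP2, LHX4 and U2AF1, with r of 0.904, 0.882 and 0.862. MCMDC2 went from 0.346 CPM in CTRL to 3.87 CPM after 6 h of JTE, and KRTCAP2 from 3.46 CPM in CTRL to 0.918 CPM after 1 h of KCl. TSPOAP1 and MIR142HG, though next to each other, had an r of 0.279. These correlations describe libraries that share their groups, the 9 JTE libraries weighing most for TSPOAP1, and carry no test.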

How the data were processed

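K562 libraries (27 of mRNA and 15 of nuclear RNA) were sequenced as read pairs, and the authors trimmed and deduplicated the reads with FASTP, aligned them to hg38 with STAR, keeping unique alignments and introns of at most 10000 bases, and counted read pairs over exons with featureCounts. The deposited values are raw counts per gene. No strand option was given, and by default that program leaves out pairs that meet exons of several genes, which lowers overlapping genes. The annotation release is not given in the sources used here. No count column was without a sample.

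The members and the gene lists were chosen with earlier results of these data known. Groups and replicate numbers come from the sample titles. Tests were run in R 4.3.3 with edgeR 4.0.16 (filterByExpr, TMM, robust quasi-likelihood fit, all groups of a fraction in 1 fit, Benjamini-Hochberg over all genes tested), and the difference between fractions as an interaction in the 12 libraries concerned. SE is the log2 fold change divided by the root of the F statistic, and intervals are approximate. Of the 6 members, 5 passed the filter in mRNA and 6 in nuclear RNA. Alternatives were DESeq2 1.42.0, RLE size factors, no filter, only the compared groups, a replicate block, CPM over library totals (for levels only), and leaving out each library. The genes named were the 6 members, genes that overlap or adjoin them, 4 of 18 partner genes fixed by name, with further called partners named after their values were seen, and the 3 genes most correlated with TSPOAP1 and with MIR142HG (highest group mean of at least 1 CPM). The fitting code was tested on simulated counts. Same-numbered libraries deviated together (every r over 0.1, over genes with a mean CPM over 10) in each nuclear comparison with CTRL (0.235 to 0.891) and in mRNA between IM 18h and IM 1h (0.112 to 0.345) and between KCl 3h and KCl 1h (0.584 to 0.671), and not in the other comparisons. By its mapped read totals, the paper numbers mRNA CTRL replicates 1 and 2 the other way round from the count columns. The lack of pairing with mRNA CTRL and the mRNA block fits rest on the numbering used here. Replicates differed by more than sampling noise (chi-square per gene from 2.37 to 62.5). Counting intervals and floors cover counting error only. A check with markers of other cell types is not reported here.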

Additional observations from a re-analysis of the deposited data

Results flagged for a closer look

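SETP3, a pseudogene within HSF5 whose reads may be shared with its parent gene, differed between fractions in its response to 1 h of KCl (nuclear minus mRNA, in log2 units, 3.86 with an SE of 0.83 and an edgeR adjusted p of 0.0441). It had 0, 2 and 0 counts in nuclear CTRL and 7, 5 and 14 after KCl. The fitted value thus rests on few nuclear counts. In mRNA it had 56, 42 and 40 counts in CTRL and 38, 110 and 82 after KCl, where 110 and 82 are from the deep libraries. Scaled to library size, these were 3.09, 2.20 and 2.23 CPM in CTRL and 1.97, 1.84 and 1.91 CPM after KCl. Every KCl mRNA library lay below CTRL, with a log2 fold change of -0.40 (SE 0.19, edgeR adjusted p 0.325), which was not called.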

How the results depend on the processing

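The calls of TSPOAP1 and MIR142HG with KCl, in mRNA at 1 and 3 h and in nuclear RNA, kept their direction and their side of the thresholds under every alternative run, leaving out each library of the comparison included. Without KCl 3h replicate 2, MIR142HG moved from -2.45 to -3.29 in mRNA. The replicate block changed no member's call. The number of genes called moved by over 1.5 times as follows, the cause not being tested. For mRNA IM 1h it was 13 with no filter, 5 with the block, 6 with DESeq2 and 1 with only the groups compared, from 3. For mRNA KCl 1h it was 465 with only the groups compared, from 986. For mRNA KCl 3h v KCl 1h it was 990 with no filter and 294 with only the groups compared, from 596. For mRNA JTE 1h it was 237 with no filter, 258 with the block and 5 with only the groups compared, from 154. For nuclear IM 1h it was 48 with no filter, 69 with the block and 30 with DESeq2, from 10. For nuclear KCl 1h it was 8022 with no filter, from 5227. For the KCl 1h interaction it was 400 with no filter, 310 with the block and 346 with DESeq2, from 141. For the IM 18h interaction it was 61 with no filter, 30 with the block and 33 with DESeq2, from 18. With no filter 2 members, not 1, were called in mRNA IM 18h and in mRNA IM 18h v IM 1h, MIR142HG being added. Log2 values near 0, none called, changed sign: MTMR4 to -0.0018, -0.0014, -0.0027, -0.0019 and -0.0003 in mRNA IM 1h, 0.021 in mRNA KCl 1h, 0.005 and 0.0062 in nuclear KCl 1h and 0.0093 and 0.0072 in the IM 18h interaction, TSPOAP1 to -0.048 and -0.0036 in mRNA IM 18h, 0.0015 in nuclear IM 18h and 0.0027, 0.039 and 0.0019 in the IM 18h interaction, SUPT4H1 to -0.0014 in mRNA KCl 1h, -0.0084 in mRNA KCl 3h, -0.035 in mRNA KCl 3h v KCl 1h and 0.011 and 0.0088 in the IM 18h interaction. Leaving out each library in turn gave from 1 to 3 in mRNA IM 1h, 364 to 588 in mRNA KCl 3h v KCl 1h, 62 to 158 in mRNA JTE 1h, 577 to 874 in mRNA JTE 18h, 4 to 9 in nuclear IM 1h, 60 to 166 in the KCl 1h interaction and 9 to 19 in the IM 18h interaction genes called, and from 0 to 1 in mRNA IM 18h v IM 1h, 0 to 2 in nuclear IM 18h and 0 to 1 in nuclear IM 18h v IM 1h members called. MTMR4 ranged from -0.054 to 0.044 in mRNA IM 1h, -0.11 to 0.041 in mRNA IM 6h, -0.14 to 0.071 in mRNA KCl 1h, -0.019 to 0.038 in nuclear IM 1h, -0.065 to 0.0297 in nuclear KCl 1h, -0.20 to 0.043 in the KCl 1h interaction and -0.063 to 0.066 in the IM 18h interaction. SUPT4H1 ranged from -0.092 to 0.037 in mRNA IM 1h, -0.075 to 0.17 in mRNA IM 6h, -0.10 to 0.10 in mRNA KCl 1h, -0.082 to 0.11 in mRNA KCl 3h, -0.094 to 0.12 in mRNA KCl 3h v KCl 1h, -0.10 to 0.014 in nuclear KCl 1h and -0.069 to 0.069 in the IM 18h interaction. MIR142HG ranged from -0.29 to 0.23 in mRNA IM 1h, -0.51 to 0.035 in mRNA IM 6h, -0.73 to 0.48 in mRNA KCl 3h v KCl 1h and -0.30 to 0.26 in the IM 18h interaction. RNF43 ranged from -0.023 to 0.26 in mRNA IM 6h, -0.19 to 0.035 in nuclear IM 1h and -0.20 to 0.021 in nuclear KCl 1h. TSPOAP1 ranged from -0.13 to 0.25 in mRNA IM 6h, -0.20 to 0.18 in mRNA IM 18h, -0.71 to 0.0024 in mRNA KCl 3h v KCl 1h, -0.55 to 0.10 in nuclear IM 1h, -0.19 to 0.41 in nuclear IM 18h and -0.21 to 0.38 in the IM 18h interaction. HSF5 ranged from -0.25 to 1.41 in nuclear IM 1h, -2.65 to 0.66 in nuclear IM 18h and -3.58 to 0.33 in nuclear IM 18h v IM 1h. Nuclear IM 18h v IM 1h gained RNF43 without IM 18h replicate 2 (-0.64) or 3 (-0.73) or IM 1h replicate 1 (-0.62). Low counts limit TSPOAP1, MIR142HG and HSF5 in mRNA.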
